A study of Mus musculus with 2 samples.

Results

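Fcer2a-negative B cells are the 184 cells, of 3913 kept in both libraries, that carried the B cell receptor component Cd79a but no unique molecular identifier (UMI) of Fcer2a. Fcer2a encodes CD23, the low-affinity IgE receptor. The cells came from immune cells stained for CD45.1 and sorted from pancreases of female NOD/ShiLtJ mice, a strain with spontaneous autoimmune diabetes, with no treatment or allele named in the labels. There was 1 library from mice 12 weeks old and 1 from mice 7 weeks old, made with 3′ droplet chemistry of 10x Genomics, and the sources used here do not say how many mice went into each. Members were chosen by raw UMI counts: each had 200 or more genes, at most 10% mitochondrial UMIs, 3 or more Cd79a UMIs, 0 UMIs of Cd3d, Cd3e and Cd3g together, at most 1 Lyz2 UMI and 0 Fcer2a UMIs. This rule gave 151 of 2804 cells at 12 weeks and 33 of 1109 at 7 weeks. The 326 and 80 cells that met the same rule but held 1 or more Fcer2a UMIs are called Fcer2a-positive here and served as the comparison. Members and comparison cells together are the gated B cells, 477 at 12 weeks and 113 at 7 weeks.

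CD23 is a lectin-like receptor of mature B cells. In the mouse it is high on follicular B cells, which recirculate through lymphoid follicles, and low or absent on marginal zone cells, B1 cells, many memory and age-associated cells, germinal centre cells and plasma cells. Marginal zone cells carry much of the complement receptor CD21 (Cr2) and of CD1d (Cd1d1), B1 cells carry CD43 (Spn) and often CD5, and the chemokine receptor Cxcr3 guides lymphocytes into inflamed tissue.

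Fcer2a (ENSMUSG00000005540) is a protein-coding gene on the minus strand at chr8:3681737-3694175 of GRCm38, the assembly that mm10 names. Both Fcer2a and Cr2 were found in RefSeq's promoter table for GRCm38.p6, and they are shown because the 1 defines the members and the other is their marginal zone and follicular marker. The search was for TGGGAA, and TTCCCA for the other strand, the core bound by RBPJ, the DNA-binding partner of Notch, which directs B cells to the marginal zone. Capitals mark the matches, which did not overlap, in the 250 bases before a start site, written 5′ to 3′ on the gene's strand. The Fcer2a window is chr8:3690862-3691111 and lies within the gene, before the middle of 3 listed start sites. The Cr2 window is chr1:195176720-195176969.
Fcer2a: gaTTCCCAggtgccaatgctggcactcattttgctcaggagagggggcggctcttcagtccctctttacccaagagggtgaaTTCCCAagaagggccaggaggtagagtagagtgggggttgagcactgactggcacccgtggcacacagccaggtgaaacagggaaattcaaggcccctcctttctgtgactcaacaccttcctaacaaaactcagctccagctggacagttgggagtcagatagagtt
Cr2: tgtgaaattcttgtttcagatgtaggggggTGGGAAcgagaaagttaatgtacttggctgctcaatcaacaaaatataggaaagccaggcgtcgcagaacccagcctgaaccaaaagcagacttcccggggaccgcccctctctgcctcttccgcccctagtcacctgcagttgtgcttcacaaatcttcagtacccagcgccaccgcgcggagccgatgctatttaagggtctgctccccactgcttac
The Fcer2a window held 2 matches and the Cr2 window 1. The windows of the same length before the other Fcer2a start sites, not printed, held 0 matches (chr8:3694175-3694424, before the gene's annotated 5′ end) and 1 match (chr8:3690391-3690640). Of 32851 promoter windows of this length, 21.6% held 1 or more, so a match is common and describes only the letters in the window.

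The 2 libraries held 2812 and 1113 barcodes at 12 and 7 weeks, with 19288252 and 8701184 UMIs, and shared 2 barcodes, neither of them in a gated B cell. Members had a median of 4486 UMIs at 12 weeks and 4461 at 7 weeks, Fcer2a-positive cells 4629.5 and 5186.5. The label was checked with the other B cell genes. Ms4a1, which encodes CD20, had a UMI in 144 of 151 members at 12 weeks and in 32 of 33 at 7 weeks, against 3.16% and 2.02% of a T cell gate (3 or more Cd3 UMIs, 0 of Cd79a; 1613 and 742 cells, median 4798 and 5584 UMIs). Cd79b, the partner of Cd79a, had a UMI in 148 of 151 and 30 of 33 members, against 9.36% and 8.09% of the T cell gate. Of the 696 and 179 cells with 3 or more Cd79a UMIs, 206 and 66 were left out for a Cd3 UMI, and 139 and 43 of these had exactly 1 such UMI. No Fcer2a UMI was found in 38.8% and 37.9% of the cells left out this way. Cd79a itself, which chose the cells, was at 2425 CPM (UMIs per 1000000) in members and 2838 CPM in Fcer2a-positive cells at 12 weeks, and at 2027 and 2429 CPM at 7 weeks. Members with exactly 3 Cd79a UMIs numbered 3 and 0, and 1 cell in each library had 2 and met the rest of the gate. No doublet caller was run. Cells with 15000 or more UMIs numbered 6 of 151 members against 2 of 326 Fcer2a-positive cells at 12 weeks, and 1 of 33 against 1 of 80 at 7 weeks. What doublets add to these cells was not tested.

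With 1 library per age there is no test in what follows. Intervals are exact 95% intervals that cover counting error only, not the spread between mice or cells. A difference of age and a difference between the libraries cannot be told apart. Levels in CPM are UMIs of a gene over all UMIs of the cells of a gate, times 1000000.

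How many members lack Fcer2a RNA, and how many were only missed, was asked first. Fcer2a had 0 UMIs in 31.7% of gated B cells at 12 weeks (interval 27.5% to 36.0%) and in 29.2% at 7 weeks (21.0% to 38.5%), so the intervals overlap. Among Fcer2a-positive cells, 123 of 326 at 12 weeks and 27 of 80 at 7 weeks held exactly 1 UMI, just outside the rule. Gated B cells had a mean of 1.60 Fcer2a UMIs at 12 weeks and 1.88 at 7 weeks, a level at which many expressing cells are counted as 0. The share of zeros moved with depth: 37.1% in cells with 3051 to 4151 UMIs, 26.4% with 4152 to 5113 and 31.4% with 5115 or more at 12 weeks. At 7 weeks it was 39.5% in cells with 2643 to 4435 UMIs, 16.2% with 4436 to 5933 and 31.6% with 5951 or more. In both libraries the deepest cells had more zeros than those of middle depth, with overlapping intervals (24.3% to 39.3% against 19.7% to 33.98% at 12 weeks, and 17.5% to 48.7% against 6.19% to 32.0% at 7 weeks).

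Dropout was then put in numbers. If every gated B cell had the same Fcer2a level per UMI, Poisson counting at each cell's depth would give 115.9 zeros at 12 weeks and 21.9 at 7 weeks, against 151 and 33 observed. A level that varies between cells as a gamma distribution, fitted by likelihood, gave 163.5 and 33.7 zeros, so a continuous range of levels is also able to give as many zeros as were seen. If only the positive cells express Fcer2a, their counts, fitted as a Poisson distribution without its zeros, imply 66.3 missed cells at 12 weeks and 12.4 at 7 weeks, which is 43.9% and 37.5% of the members. Thinning the positive cells to 2000 UMIs left 36.3% of them without a Fcer2a UMI at 12 weeks and 36.8% at 7 weeks. After thinning all gated B cells to 2000 UMIs the share with 0 was 57.4% and 58.4%. Which shallow member is a missed positive cell cannot be read from its own count. Of 38 gated B cells with 8000 or more UMIs at 12 weeks 17 held no Fcer2a UMI (44.7%, 28.6% to 61.7%), against 30.5% (26.2% to 35.1%) of those under 8000 UMIs. At 7 weeks 4 of 17 held none (23.5%, 6.81% to 49.9%), against 30.2% (21.3% to 40.4%), so the direction differs between the libraries and the intervals overlap in each. For the 17 zeros in deep cells at 12 weeks, Poisson counting gives 1.63 at the same level in every cell. It gives 0.702 at the level of the positive cells. For the 4 at 7 weeks these values are 0.639 and 0.292. The gamma fit was not split by depth, and the cause of the zeros in deep cells was not tested.

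**Figure D1:**
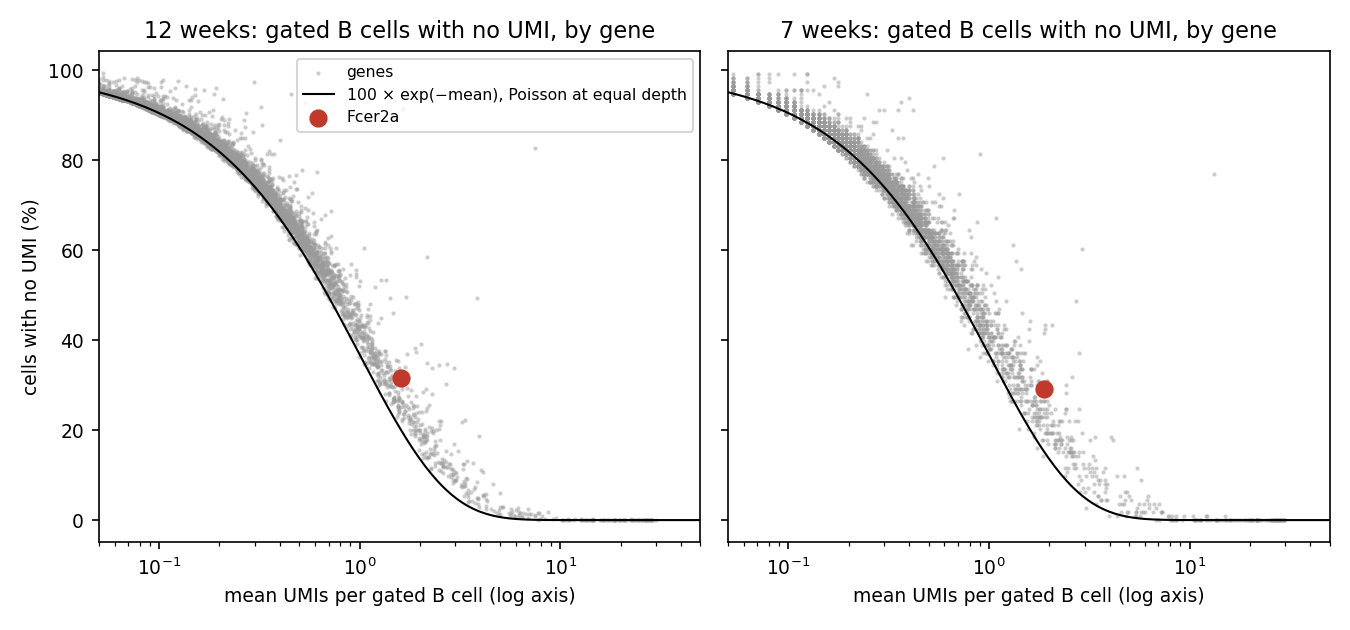
Percent of gated B cells with no UMI of a gene (vertical) against the gene's mean UMIs per cell (horizontal, log axis) for 12 weeks (left) and 7 weeks (right), each grey point 1 gene, the line the Poisson share at equal depth, and the red point Fcer2a. Fcer2a lay above the line in both libraries, at 31.7% and 29.2%, and above the median of the genes of like mean.

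Many other genes of a like level had as many zeros. Of 154 genes whose mean was within 1.25-fold of that of Fcer2a at 12 weeks, the median share of zeros was 27.0% and 40 had a larger share than Fcer2a. At 7 weeks the median over 136 such genes was 23.9% and 25 had a larger share.

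What sets the members apart was asked by comparing their summed UMIs with those of Fcer2a-positive cells, library by library. Genes of antibody secretion and of the endoplasmic reticulum were higher in members in both libraries, but a large part of their UMIs came from a few cells. Genes of follicular B cells summed to lower levels, with a 7 week interval that included 1, and genes of memory and age-associated cells to higher levels. Of 6104 genes with 30 or more UMIs in the gates at 12 weeks, 571 were 1.5-fold or more higher in members (9.35%) and 378 lower (6.19%). At 7 weeks 307 of 2367 were higher (13.0%) and 222 lower (9.38%). In both libraries together, 60 of 2366 genes were higher (2.54%), 12 were lower (0.507%) and 7 went past the fold in opposite directions. The median ratio over all genes was 1.03 in each library.

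Most of that difference sat in the deep cells. With cells of 8000 or more UMIs left out of both gates, a choice made after the data were seen, 7 genes of 1765 were higher in both libraries and 3 lower, and 3 of the 60 were among the 7. This left 134 and 29 members, against 305 and 67 Fcer2a-positive cells. With the cell holding most of a gene's UMIs left out of each gate, also chosen after the data were seen, 10 genes were higher and 19 lower. The totals were kept and members are fewer, so this step itself tends to lower the ratio of members over Fcer2a-positive cells.

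The genes named as higher are mostly those of antibody secretion and of the endoplasmic reticulum. Jchain, which links antibody subunits for secretion, was at 3924 CPM in members at 12 weeks, against 59.9 CPM in Fcer2a-positive cells, a ratio of 65.5 (53.8 to 80.5). At 7 weeks it was at 7872 CPM in members and 40.6 CPM in Fcer2a-positive cells, a ratio of 194 (124 to 323). A single cell held 69.4% of the members' Jchain UMIs at 12 weeks and another 97.9% at 7 weeks. A Jchain UMI was found in 19.9% and 30.3% of members, against 19.7% and 22.2% of the T cell gate, so a low count is near that seen in cells that should lack the gene. Only 3 members, 2 at 12 weeks and 1 at 7 weeks, held 100 or more Jchain UMIs (2403, 1001 and 1449), and 0 Fcer2a-positive cells did.

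The other secretory genes also had their UMIs in few cells. Mzb1, a reticulum chaperone of antibody-making cells, was at 1278 CPM in members and 636 CPM in Fcer2a-positive cells at 12 weeks (ratio 2.01, 1.85 to 2.19), and at 2053 and 502 CPM at 7 weeks (4.09, 3.47 to 4.83). Xbp1, the transcription factor of the secretory programme, had ratios of 2.68 (2.15 to 3.34) and 7.72 (5.07 to 12.1). Slpi, a protease inhibitor, had ratios of 39.2 and 9.61, Edem1 and Edem2, which send misfolded proteins to breakdown, 4.74 and 15.7 and 2.82 and 3.32, and the chaperone Hsp90b1 3.36 and 2.76. The disulfide isomerases Pdia4 and Pdia6 had ratios of 2.72 and 4.63 and of 2.11 and 2.41, and the peptidases H13 and Sec11c of 2.76 and 3.68 and of 2.03 and 2.92. In these 10 genes the cell with most UMIs held 28.2% to 50.9% of the members' UMIs at 12 weeks and 61.5% to 92.0% at 7 weeks. At 12 weeks the cell with most Mzb1 UMIs, 321 of 1129, also held 292 of the 752 Slpi UMIs but only 5 of Jchain. That cell had 23 UMIs of Cox6a2 and 0 of Siglech, both genes of the plasmacytoid dendritic cell list. In cells under 8000 UMIs Mzb1 was at 0.917 of the Fcer2a-positive level at 12 weeks and 0.782 at 7 weeks, and Xbp1 at 0.936 at 12 weeks.

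With the cell with most UMIs of each gene left out of each gate at 7 weeks, the ratios of Hsp90b1, H13, Edem2, Sec11c and Pdia6 were 0.851, 0.586, 0.332, 0.923 and 0.861. Part of this fall can come from the step itself, which takes a larger share of the fewer members.

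Lgals1, which encodes the sugar-binding protein galectin-1 and is high in activated lymphocytes, was the remaining named gene. It was at 234 CPM in members and 49.9 CPM in Fcer2a-positive cells at 12 weeks (4.69, 3.63 to 6.12) and at 149 and 46.96 CPM at 7 weeks (3.17, 1.75 to 5.82). Nearly the same share of cells had a UMI, 23.2% of members and 22.4% of Fcer2a-positive cells at 12 weeks, while 14 of 151 members but 3 of 326 Fcer2a-positive cells held 3 or more. The difference was therefore in a few cells with much Lgals1. In cells under 8000 UMIs its ratio was 1.38 at 12 weeks and 0.913 at 7 weeks.

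The 12 genes named as lower did not rest on single cells at 12 weeks, and several were modest. The inducible heat shock gene Hspa1a was at 272 CPM in members and 468 CPM in Fcer2a-positive cells at 12 weeks (0.58, 0.50 to 0.67), and at 277 and 544 CPM at 7 weeks (0.51, 0.37 to 0.69). Its paralogue Hspa1b, with which it can share reads, had ratios of 0.51 and 0.34. Ltb, which encodes lymphotoxin beta and is needed for lymphoid follicles, was at 789 and 994 CPM at 12 weeks (0.79, 0.73 to 0.87) and at 686 and 914 CPM at 7 weeks (0.75, 0.61 to 0.92), members first. Hvcn1, a proton channel of B cells, had ratios of 0.65 and 0.65, the phosphatase gene Dusp1 0.70 and 0.61, and the protease inhibitor Serpinb1a 0.78 and 0.36. Smap2 (0.64 and 0.54), Arl6ip1 (0.74 and 0.42), Tmem123 (0.74 and 0.57) and Gmfg (0.78 and 0.62) were also among them. Cd79b had ratios of 0.88 and 0.74, and the MHC class II chain H2-Aa of 0.86 and 0.88. In each of these 12 genes no cell held over 12.5% of the members' UMIs at 12 weeks. A lower ratio could also rest on 1 high Fcer2a-positive cell. In that gate the largest share of 1 cell was 12.8% at 12 weeks, for Arl6ip1. At 7 weeks it was 15.3%, for Hspa1b, with 12.9% for Hspa1a.

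**Figure D2:**
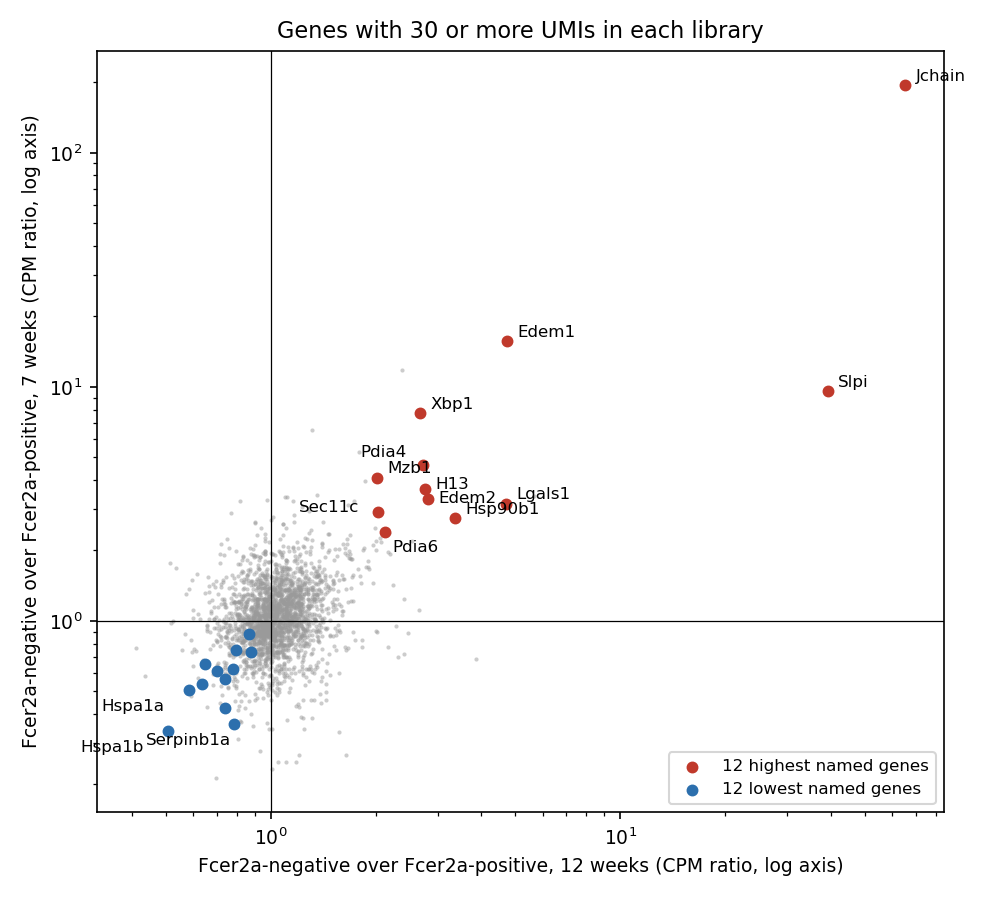
Ratio of CPM in Fcer2a-negative over Fcer2a-positive B cells at 12 weeks (horizontal) and 7 weeks (vertical), log axes, each grey point 1 gene with 30 or more UMIs in each library, red and blue the 12 highest and 12 lowest named genes. Jchain stands farthest out at 65.5 and 194, and the blue genes lie close to the cloud of all genes.

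The gene lists for B cell subsets were then read, first the follicular list, whose member Fcer2a was left out. Its 10 other genes summed to 1122 CPM in members and 1560 CPM in Fcer2a-positive cells at 12 weeks (0.72, 0.67 to 0.77), with 0 of 10 past 1.5-fold higher and 3 lower. At 7 weeks the sums were 1521 and 1693 CPM (0.90, 0.78 to 1.03), with 1 higher and 2 lower. Cd55, an inhibitor of complement, was at 130 CPM in members and 218 CPM in Fcer2a-positive cells at 12 weeks (0.60, 0.48 to 0.74) and at 170 and 265 CPM at 7 weeks (0.64, 0.42 to 0.95). The follicle homing receptor Cxcr5 was at 82.7 and 123 CPM at 12 weeks (0.67, 0.51 to 0.88), and at 122 and 111 CPM at 7 weeks (1.10, 0.64 to 1.83). In cells under 8000 UMIs the list was at 0.862 of the Fcer2a-positive level at 12 weeks and 0.966 at 7 weeks.

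The marginal zone list was higher in members, but Mzb1 gave 1129 of its 2026 UMIs in members at 12 weeks and 386 of 585 at 7 weeks, and its defining genes Cr2 and Cd1d1 were not higher. The list summed to 1.40-fold at 12 weeks (1.32 to 1.48) and 2.22-fold at 7 weeks (1.98 to 2.48), with 2 of 9 measured genes higher and 2 lower at 12 weeks and 2 of 5 higher and 1 lower at 7 weeks. With cells of 8000 or more UMIs left out it was at 0.951 of the Fcer2a-positive level at 12 weeks and 0.911 at 7 weeks, and without the cell with most UMIs of each gene at 0.964 at 7 weeks. Leaving out that cell tends by itself to lower the ratio. Mzb1 is also used by plasma cells. Notch2, the receptor that directs cells to the marginal zone, was at 21.5 CPM in members and 37.0 CPM in Fcer2a-positive cells at 12 weeks (0.58, 0.33 to 0.98), and at 58.5 and 42.7 CPM at 7 weeks (1.37, 0.59 to 3.0). Cr2 was at 98.5 CPM in members and 132 CPM in Fcer2a-positive cells at 12 weeks (0.75, 0.58 to 0.96), and at 95.7 and 145 CPM at 7 weeks (0.66, 0.37 to 1.12). After thinning to 2000 UMIs a Cr2 UMI was in 17.2% of members and 22.4% of Fcer2a-positive cells at 12 weeks, and in 15.2% and 27.5% at 7 weeks. Unthinned, the shares were 38.4% and 45.1% at 12 weeks and 30.3% and 53.8% at 7 weeks, against 0.372% and 0.674% of the T cell gate. Cd1d1 was at 13.6 and 29.96 CPM at 12 weeks (0.45, 0.22 to 0.86), and its share of members with a UMI, 7.28%, lay under that of the T cell gate, 14.6%. Cd9, a membrane scaffold protein of marginal zone and B1 cells, had 11 UMIs in members and 7 in Fcer2a-positive cells at 12 weeks (3.03, 1.07 to 9.22), and 3 and 1 at 7 weeks.

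Of the B1 list, the sums were 929 CPM in members and 653 CPM in Fcer2a-positive cells at 12 weeks (1.42, 1.3 to 1.56), and 819 and 640 CPM at 7 weeks (1.28, 1.05 to 1.56). The defining genes Spn and Cd5 were rare: Spn had 12 UMIs in members and 9 in Fcer2a-positive cells at 12 weeks and 2 and 0 at 7 weeks, and Cd5 had 5 and 8, and 0 and 4. Both genes had a UMI in over 50% of the T cell gate at 12 weeks (52.3% and 50.03%) and in few members (5.96% and 3.31%). Bhlhe41, a transcription factor that B1 cells need, had 18 UMIs in members and 4 in Fcer2a-positive cells at 12 weeks (8.67, 2.86 to 35.2) and 5 and 2 at 7 weeks (6.23, 1.02 to 65.4), in 9 and 4 members. At 12 weeks 1 cell held 7 of the 18, and that cell had 0 UMIs of Ms4a1 and of Cd79b. Vim, an intermediate filament, and Anxa2, a membrane-binding protein, made up more of the list, with ratios of 1.47 and 2.59 at 12 weeks and 1.39 and 3.60 at 7 weeks. In cells under 8000 UMIs the list kept ratios of 1.26 at 12 weeks and 1.27 at 7 weeks.

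The memory and age-associated list was higher in members, at 665 CPM and 294 CPM in Fcer2a-positive cells at 12 weeks (2.26, 2.01 to 2.55), and at 431 and 263 CPM at 7 weeks (1.64, 1.22 to 2.19). At 12 weeks 5 of 9 measured genes were higher and 0 lower, at 7 weeks 3 of 4 and 0. Cd86, a costimulatory ligand, was at 95.1 and 58.2 CPM at 12 weeks (1.64, 1.21 to 2.21) and at 85.1 and 61.9 CPM at 7 weeks (1.37, 0.70 to 2.62). Zeb2, a transcription factor of age-associated cells, was at 56.6 and 25.9 CPM (2.19, 1.43 to 3.36) and at 74.5 and 38.4 CPM (1.94, 0.89 to 4.12). Itgax, which encodes CD11c, had 18 UMIs in members and 2 in Fcer2a-positive cells at 12 weeks, but 1 cell held 12 of the 18, and both gates held 0 at 7 weeks. Neither gene is particular to B cells: at 12 weeks a Zeb2 UMI was in 81.6% and an Itgax UMI in 71.1% of a myeloid gate (5 or more Lyz2 UMIs, 0 of Cd79a and Cd3; 38 cells, median 11058.5 UMIs), and the macrophage list was 2.61-fold higher in the same members (2.17 to 3.13). Its part in the memory and age-associated list was not tested. Tbx21, the T-bet gene of these cells, had 5 UMIs in members and 1 in Fcer2a-positive cells at 12 weeks, and 0 in both at 7 weeks. Where none of the 33 members at 7 weeks had a UMI, the exact interval allows a share of up to 10.6% with 1 or more. In cells under 8000 UMIs the list had ratios of 1.42 at 12 weeks and 1.18 at 7 weeks.

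Cxcr3 (ENSMUSG00000050232; chrX:101731535-101734269, minus strand) is a receptor whose UMIs were in few members. It had 45 UMIs in 16 of 151 members at 12 weeks and 1 UMI in 1 of 33 at 7 weeks, against 25 UMIs in 12 of 326 and 2 UMIs in 2 of 80 Fcer2a-positive cells. At 12 weeks its level was 50.96 CPM in members and 14.7 CPM in Fcer2a-positive cells, a ratio of 3.47 (2.08 to 5.90) that ran from 2.58 to 4.68 over the alternatives tried. Thinned to 2000 UMIs, 5.30% of members and 1.53% of Fcer2a-positive cells at 12 weeks had a UMI, unthinned 10.6% and 3.68%, against 7.89% of the myeloid gate and 43.1% of the T cell gate. Members with 2 or more Cxcr3 UMIs numbered 10 of 151 at 12 weeks (6.62%, 3.22% to 11.8%) and 0 of 33 at 7 weeks, against 5 of 326 (1.53%, 0.50% to 3.54%) and 0 of 80 Fcer2a-positive cells. The 10 cells all had Ms4a1, with 104 UMIs together. They held 104 Lgals1 UMIs, 67 of them in 1 cell, 2 Tbx21 UMIs, 0 of Itgax and 0 of Cd80. Itgax and Cd80 were rare in the other 141 members too, at 18 and 4 UMIs, so these zeros say little. Zeb2 had 16 UMIs in 3 of the 10 cells, and 1 of the 10 also held 1001 Jchain UMIs. One cell held 152 of their 169 Apoe UMIs. Ccr7, a lymph node homing receptor, had 2 UMIs in them, and their median depth was 10969.5 UMIs, against 4413 in the other 141 members.

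Germinal centre genes were scarce. The list summed to 171 CPM in members and 92.2 CPM in Fcer2a-positive cells at 12 weeks (1.85, 1.47 to 2.33), and to 207 and 68.3 CPM at 7 weeks (3.04, 1.85 to 5.01). The ratio in cells under 8000 UMIs was 0.737 at 12 weeks and 2.35 at 7 weeks, and without the cell with most UMIs of each gene it was 1.31 at 7 weeks. Bcl6, the transcription factor that defines germinal centre cells, was at 10.2 CPM in members and 9.40 CPM in Fcer2a-positive cells at 12 weeks, and Mef2b was at 0 UMIs in all 4 gates.

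Cycling cells did not mark the members in both libraries. The cell cycle list had a ratio of 1.55 at 12 weeks (1.46 to 1.65), with 15 of 23 measured genes higher and 3 lower, and of 0.99 at 7 weeks (0.86 to 1.13), with 1 of 7 higher and 0 lower. Mki67 had 28 UMIs in members and 21 in Fcer2a-positive cells at 12 weeks (2.57, 1.41 to 4.76), and 6 and 14 at 7 weeks (1.07, 0.34 to 2.96). Top2a, the topoisomerase of dividing cells, had ratios of 2.30 (1.49 to 3.58) and 0.70 (0.29 to 1.5). Cells with 3 or more UMIs over 7 mitosis genes (Mki67, Top2a, Cdk1, Ccna2, Ccnb1, Birc5 and Ube2c) were 7 of 151 members (4.64%, 1.88% to 9.32%) and 3 of 326 Fcer2a-positive cells (0.920%, 0.190% to 2.67%) at 12 weeks, and 1 of 33 and 2 of 80 at 7 weeks.

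The activation list summed to nearly the same level in both gates, at 0.98 of the Fcer2a-positive level at 12 weeks (0.93 to 1.03) and at 0.96 at 7 weeks (0.87 to 1.05). Of its measured genes 5 of 19 were higher and 0 lower at 12 weeks, and 2 of 16 were higher and 5 lower at 7 weeks. Cd69, an early activation receptor, was at 385 CPM in members and 408 CPM in Fcer2a-positive cells at 12 weeks (0.94, 0.83 to 1.08), and at 404 and 305 CPM at 7 weeks (1.32, 0.99 to 1.76). Egr1, a transcription factor made within minutes of receptor signals, was at 89.5 and 58.7 CPM at 12 weeks (1.52, 1.12 to 2.07) and at 159.6 and 78.98 CPM at 7 weeks (2.02, 1.21 to 3.36). Gadd45b, a stress-response gene, was at 69.1 and 37.0 CPM (1.87, 1.29 to 2.70) and at 138 and 81.1 CPM (1.7, 0.99 to 2.88). Genes of MHC class II presentation were at 0.87 (0.86 to 0.89) and 0.91 (0.89 to 0.94) of the Fcer2a-positive level, with 0 of 13 past the fold in either library. Genes of MHC class I presentation were at 1.07 (1.04 to 1.10) and 1.28 (1.22 to 1.35), with 0 of 17 and 2 of 16 higher and 0 lower.

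Markers of macrophages and dendritic cells were also higher in members, except those of conventional dendritic cells at 7 weeks. The T cell list, which holds the Cd3 genes fixed at 0 by the rule, was at 134 CPM in members and 117 CPM in Fcer2a-positive cells at 12 weeks and at 170 and 117 CPM at 7 weeks. The macrophage list was at 322 and 123 CPM at 12 weeks (2.61, 2.17 to 3.13) and at 160 and 66.2 CPM at 7 weeks (2.41, 1.41 to 4.12), with 5 and 8 of its 12 genes at 0 in members, and 1 cell held 152 Apoe UMIs of the list's 284 UMIs at 12 weeks. The conventional dendritic cell list was at 57.7 and 21.1 CPM at 12 weeks (2.73, 1.75 to 4.31) and at 10.6 and 14.9 CPM at 7 weeks (0.71, 0.072 to 3.74), with 6 and 8 of its 10 genes at 0 in members; it shares Itgax, with 18 of its 51 UMIs at 12 weeks, with the memory and age-associated list. The plasmacytoid dendritic cell list was at 211 and 111 CPM at 12 weeks (1.9, 1.54 to 2.34) and at 176 and 100.3 CPM at 7 weeks (1.75, 1.09 to 2.79), with Siglech at 0 in the 34 cells described next and all 23 of their Cox6a2 UMIs in 1 cell. With cells left out that held 3 or more Jchain UMIs or any UMI of Siglech, C1qa, Ncr1 or Cd8a, 11 genes were higher and 8 lower in both libraries, and the plasma cell list was at 0.967 of the Fcer2a-positive level at 12 weeks and 1.0 at 7 weeks. Under the same filter the memory and age-associated list was at 1.88 and 1.26, the marginal zone list at 1.01 and 1.21, the B1 list at 1.24 and 1.33, and Cxcr3 at 12 weeks at 2.86.

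**Figure D3:**
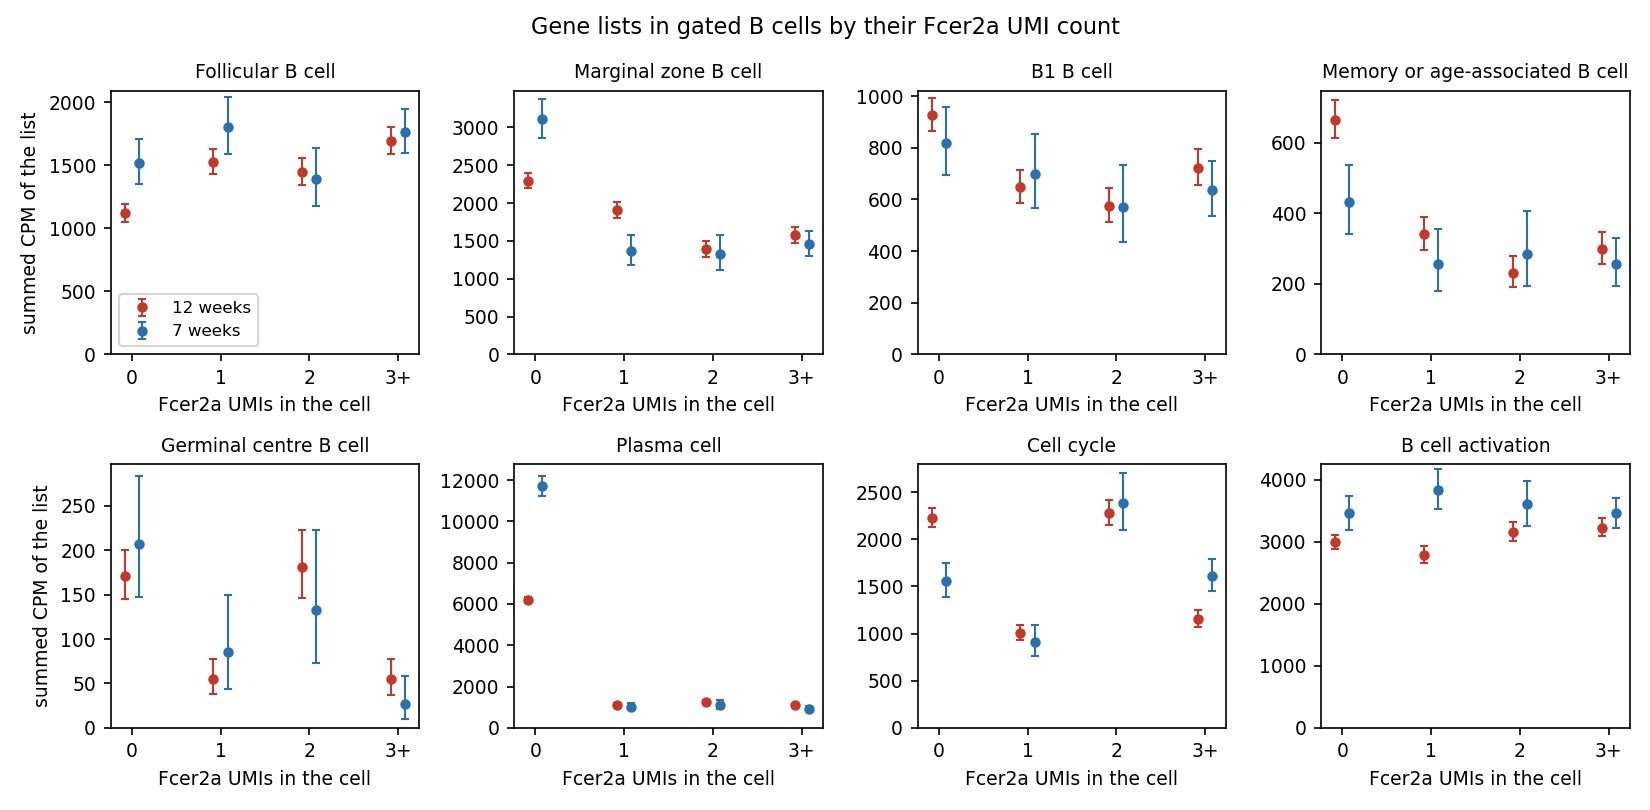
Summed CPM of 8 gene lists (vertical, from 0) in gated B cells with 0, 1, 2 or 3 or more Fcer2a UMIs (horizontal), 12 weeks in red and 7 weeks in blue, bars the exact 95% interval of counting error. The plasma cell list stands out at 0 UMIs, at 6190 and 11707 CPM, while the cell cycle and germinal centre lists do not fall steadily with Fcer2a.

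Cells were also compared by their number of Fcer2a UMIs. At 12 weeks the memory and age-associated list was at 665 CPM with 0 UMIs, 341 with 1, 231 with 2 and 298 with 3 or more. The follicular list was at 1122, 1527, 1449 and 1690 CPM. The plasma cell list was at 6190 CPM with 0 UMIs and at 1110, 1234 and 1083 CPM in the other cells. The cell cycle list was as high with 2 UMIs (2284 CPM) as with 0 (2230 CPM), and so was the germinal centre list (181 and 171 CPM). At 7 weeks the memory and age-associated list was at 431, 257, 285 and 255 CPM in the same order, and the plasma cell list at 11707, 1007, 1122 and 923 CPM. The follicular list was at 1521, 1806, 1389 and 1765 CPM at 7 weeks, so there it was not lowest with 0 UMIs.

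How the members vary among themselves was described by clustering the 184 cells without cell cycle genes. The genes that lead a cluster were used to form it and are no finding. Of 4 clusters, 150 cells fell into 3 (63, 49 and 38 cells) led by Smpdl3a and S1pr1, by the early response genes Nr4a1 and Egr1, and by the ribosome assembly genes Wdr12 and Bysl. These 3 had follicular list levels of 1398 to 1774 CPM. The fourth held 34 cells and was picked out because its median UMIs were the highest of the 4. It is called the set-apart cluster. At resolution 0.3, 33 of its cells stayed together, and all 34 did at 1.0. The cluster took 29 of 151 members at 12 weeks (19.2%, 13.3% to 26.4%) and 5 of 33 at 7 weeks (15.2%, 5.11% to 31.9%), shares whose intervals overlap. Of the 21 members with 8000 or more UMIs, 18 were in it, which is no separate finding since depth was used to pick it.

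The set-apart cells, picked by depth, had a median of 9719.5 UMIs (3929 to 48578). Their follicular list was at 407 CPM, against 1635 CPM in the other 150 members, and their B cell identity list at 16874 and 25702 CPM. The cluster was given no cell type name, because its cells carried different programmes. Plasma cell genes marked 3 cells with 100 or more Jchain UMIs and 0 to 2 of Ms4a1, 1 of which held 3 Cxcr3 UMIs. A cell of 48578 UMIs held 321 Mzb1, 292 Slpi and 23 Cox6a2 UMIs with 5 of Jchain and 1 of Ms4a1. Cxcr3 was at 2 or more UMIs in 9 cells, of which 2 were among the 8 with 3 or more mitosis UMIs.

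**Figure D4:**
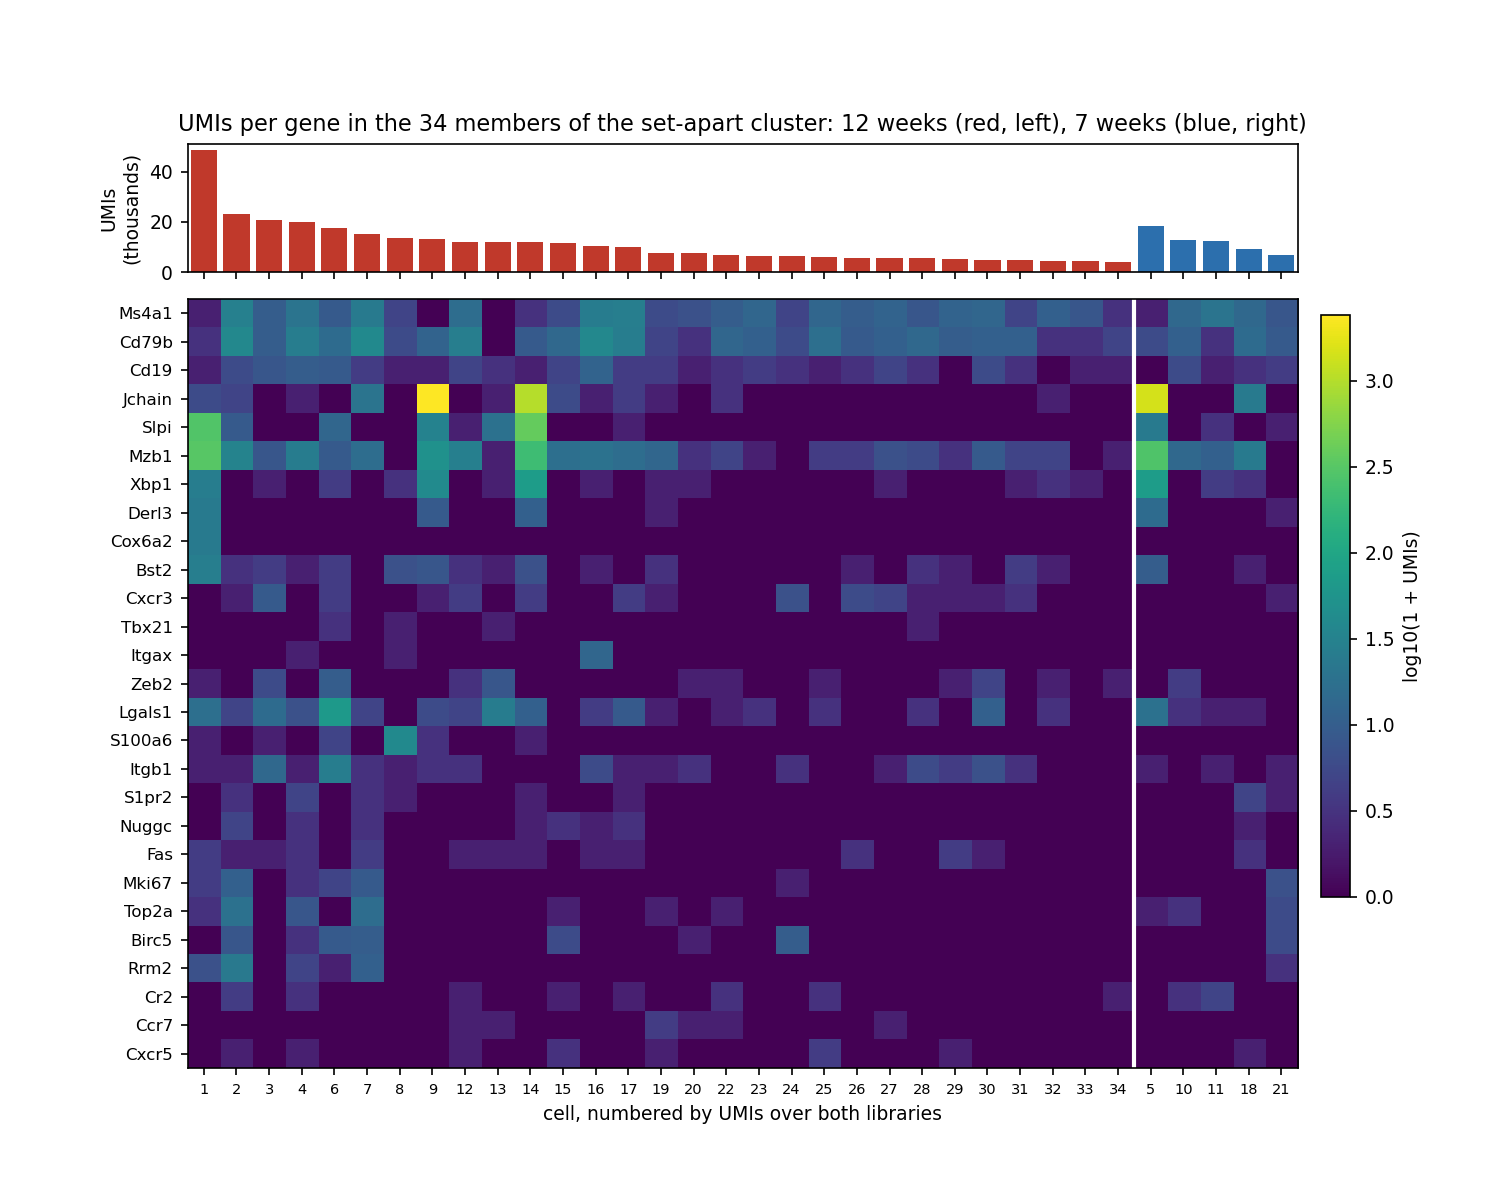
UMIs per gene (rows; colour, log10 of 1 plus UMIs) in each of the 34 cells of the set-apart cluster (columns), 29 from 12 weeks left of the white line and 5 from 7 weeks right of it, with each cell's total UMIs above (axis in units of 1000). Jchain is bright in 3 cells, mitosis genes are in a few cells, and Cxcr3 is mostly in others.

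The members of the 2 ages were compared last. In members at 12 weeks, genes of glycolysis, of the memory list and of sterol synthesis were higher, and immediate-early genes lower, than at 7 weeks. Of 3775 genes with 30 or more UMIs, 681 were 1.5-fold or more higher at 12 weeks (18.0%) and 406 lower (10.8%), and the median ratio over all was 1.08. The 7 week members hold 188000 UMIs against 883138 at 12 weeks, so many of these ratios rest on few UMIs at 7 weeks. The same ratio in Fcer2a-positive cells comes from the same 2 libraries and is given for comparison.

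Of the 12 genes named as higher, several had 0 to 4 UMIs at 7 weeks. Cxcr3 was at 50.96 CPM at 12 weeks, from 45 UMIs, and at 5.32 CPM at 7 weeks, from 1 (9.58, 1.63 to 387), and in Fcer2a-positive cells its ratio was 3.44 (0.86 to 29.96). Napsa, an aspartic protease, was at 677 and 324 CPM (2.09, 1.60 to 2.76; Fcer2a-positive cells 1.5, 1.3 to 1.73), and Akr1b3, an aldose reductase, at 174 and 58.5 CPM (2.98, 1.62 to 6.10; 1.26, 0.91 to 1.78). Smc3, a subunit of cohesin, was at 102 and 21.3 CPM (4.79, 1.81 to 17.96), against a ratio of 1.14 (0.80 to 1.66) in Fcer2a-positive cells. Emp3, a membrane protein, had a ratio of 2.72 (1.55 to 5.21; Fcer2a-positive cells 1.32, 0.99 to 1.79) and Ass1, an enzyme of arginine synthesis, of 6.07 (1.60 to 51.3; 1.48, 0.69 to 3.64). The acetyltransferase Naa50, the chloride transporter Clcn4, the ribosome assembly factor Brix1 and the cell cycle subunit Cks1b rested on 3, 1, 1 and 1 UMIs at 7 weeks, and Gtf2e2 and Tmem70 on 0 against 34 and 30 at 12 weeks. The exact intervals of Gtf2e2 and Tmem70 begin at 1.86 and 1.63 and have no upper end. In Fcer2a-positive cells the interval of these 6 genes included 1.

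Klf2, a transcription factor that keeps lymphocytes quiescent and recirculating, was lower in members at 12 weeks, at 31.7 CPM, against 133 CPM at 7 weeks (0.24, 0.13 to 0.43). Its ratio in Fcer2a-positive cells was 0.75 (0.51 to 1.13) and in the T cell gate 0.74, and over the alternatives tried the ratio in members ran from 0.20 to 0.28. Within a library, Klf2 was lower in members than in Fcer2a-positive cells at 12 weeks (0.53, 0.34 to 0.82) and at 133 and 78.98 CPM at 7 weeks (1.68, 0.97 to 2.87). Nampt, an enzyme of NAD synthesis, was at 0.28 (0.14 to 0.55) in members and 1.10 (0.59 to 2.20) in Fcer2a-positive cells. Xbp1 was at 0.46 (0.36 to 0.59), with 77.4% of its 7 week UMIs in 1 cell, and without the cell with most UMIs in each library at 1.29. In Fcer2a-positive cells its ratio was 1.32 (0.89 to 2.03).

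The other genes named as lower had ratios under 1 in Fcer2a-positive cells too, with intervals that included 1 for Wapl and Chd1. The antiproliferative gene Btg1 had a ratio of 0.45 (0.39 to 0.53) in members, 0.44 in Fcer2a-positive cells and 0.49 in the T cell gate. The immediate-early gene Ier5 had ratios of 0.19, 0.16 and 0.21, and the chaperone cofactor Bag1 of 0.12, 0.33 and 0.26. Jund, a subunit of the factor AP-1, had 0.33, 0.46 and 0.45, and Dnajb4, a co-chaperone, 0.27, 0.56 and 0.70. Pkn2 (0.28, 0.45 and 0.50), Sh2b3 (0.28, 0.33 and 0.47), Wapl (0.28, 0.66 and 0.68) and Chd1 (0.29, 0.62 and 0.57) complete the 12.

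**Figure D5:**
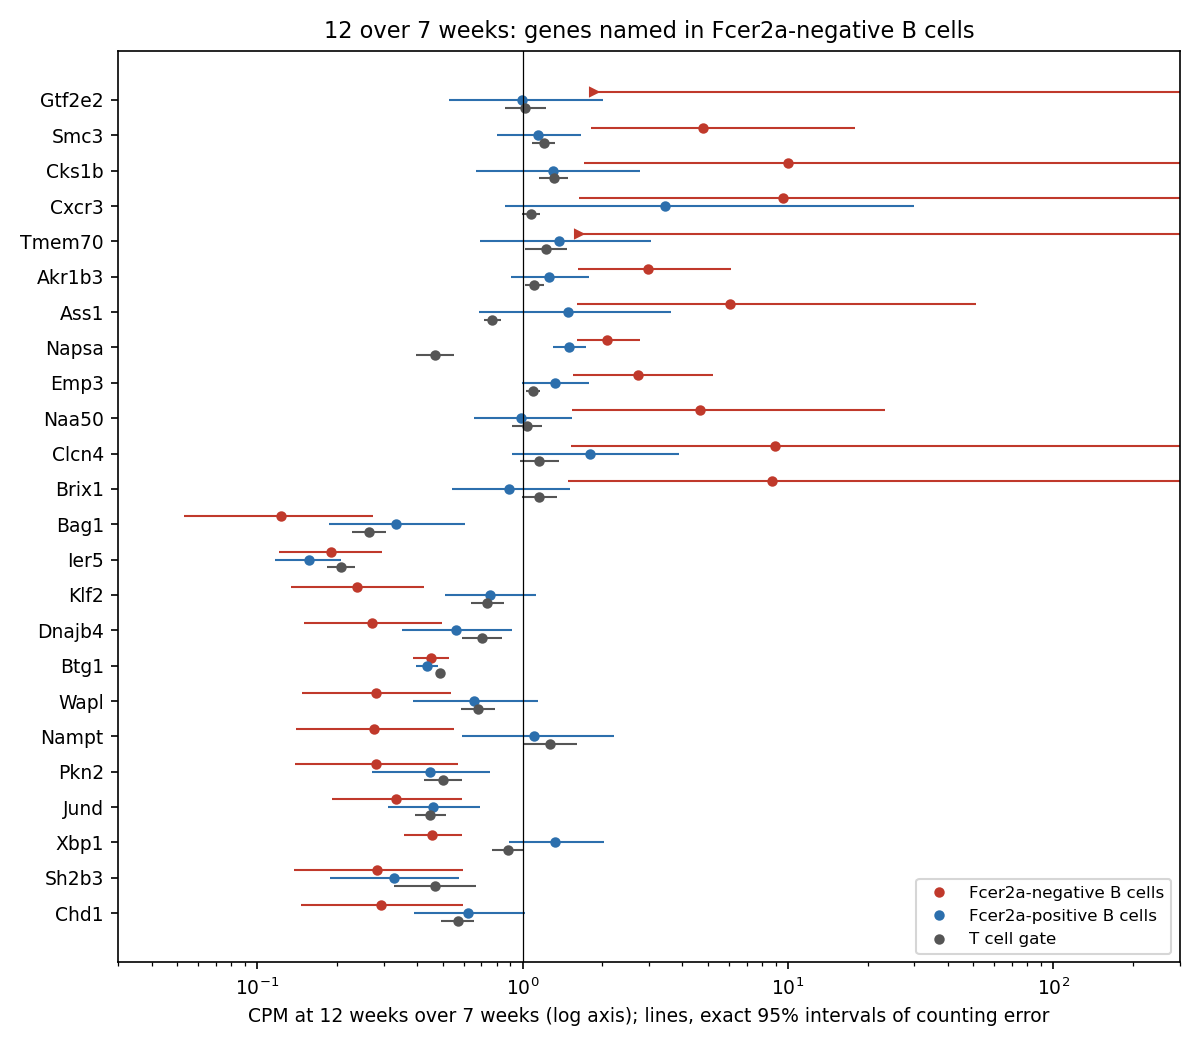
CPM at 12 weeks over 7 weeks (horizontal, log axis) for the 24 genes named in members (rows), with members in red, Fcer2a-positive cells in blue and a T cell gate in grey; lines are exact 95% intervals of counting error, cut at the right edge, and a triangle marks the lower interval end of a gene with 0 UMIs at 7 weeks. The lower genes are mostly below 1 in all 3 gates, while Nampt and Xbp1 are above 1 in Fcer2a-positive cells, at 1.10 and 1.32.

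By lists, glycolysis was at 3358 CPM in members at 12 weeks and 2207 CPM at 7 weeks (1.52, 1.37 to 1.69; Fcer2a-positive cells 1.25, 1.16 to 1.33), with 4 of 11 measured genes higher and 0 lower. In cells under 8000 UMIs this ratio was 1.21. The memory and age-associated list was at 665 and 431 CPM (1.54, 1.22 to 1.97; 1.12, 0.92 to 1.37), with 2 of 5 higher and 0 lower. Sterol synthesis was at 345 and 223 CPM (1.55, 1.12 to 2.19; 1.45, 1.17 to 1.81), with 3 of 5 higher and 0 lower. The cell cycle list was at 2230 and 1559 CPM (1.43, 1.26 to 1.62; 0.91, 0.84 to 0.99), with 6 of 16 higher and 0 lower, but at 0.592 in cells under 8000 UMIs, so its direction rests on the deep cells. MHC class II presentation was at 1.14 (1.11 to 1.17) in members and 1.19 (1.17 to 1.21) in Fcer2a-positive cells.

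Immediate-early and heat shock genes were at 8280 CPM in members at 12 weeks and 10931 CPM at 7 weeks (0.76, 0.72 to 0.80; Fcer2a-positive cells 0.87, 0.84 to 0.90), with 0 of 19 higher and 7 lower. Fos and Junb, subunits of AP-1, had ratios of 0.65 (0.54 to 0.79) and 0.70 (0.59 to 0.84), against 0.73 and 0.76 in Fcer2a-positive cells. The follicular list was at 1122 and 1521 CPM (0.74, 0.65 to 0.84; 0.92, 0.85 to 1.0), with 0 of 10 higher and 1, Klf2, lower. The plasma cell list was at 6190 and 11707 CPM (0.53, 0.50 to 0.56; Fcer2a-positive cells 1.15, 1.03 to 1.27). Jchain gave 3465 of its 5467 UMIs at 12 weeks and 1480 of 2201 at 7 weeks, and 2 and 1 cells held 100 or more Jchain UMIs. Mzb1, also of the list, had a UMI in 140 and 28 members. The direction of the list turned in 3 alternatives, where the ratio in members was 1.05 without cells holding UMIs of other cell types, 1.08 in cells under 8000 UMIs and 2.44 without the cell with most UMIs of each gene. Of the always reported genes, Cr2 had a ratio of 1.03 (0.61 to 1.82; Fcer2a-positive cells 0.91, 0.69 to 1.21) and Cd69 of 0.95 (0.74 to 1.24; 1.34, 1.12 to 1.61). Mki67 was at 0.99 (0.40 to 2.93) in members and 0.41 (0.20 to 0.88) in Fcer2a-positive cells, and Top2a at 1.16 (0.56 to 2.68) and 0.35 (0.22 to 0.58). Ms4a1 was at 1.18 (1.0 to 1.40) in members and 1.47 (1.32 to 1.65) in Fcer2a-positive cells. Transcripts of acinar cells, which a B cell does not make, were at 248 CPM in members at 12 weeks and 15.96 CPM at 7 weeks, and at 324 and 145 CPM in Fcer2a-positive cells. Its part in the comparison of ages was not tested.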

How the data were processed

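Each library's matrix held whole UMI counts per gene and barcode, deposited by the authors and made with Cell Ranger 1.3.1 on mm10, per the submitters' processing notes; no source used here gives the cell calling settings. It listed 27998 genes; immunoglobulin isotypes were not analysed here. The members, the gates and the 30 gene lists (439 genes, 2 of them, Itgam and Cd37, not analysed here) were chosen with earlier results of these data known.

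UMIs were summed per gate and library, divided by the gate's UMIs, and compared as ratios of CPM with exact conditional binomial intervals. Genes needed 30 UMIs in the gates compared. Shares have Clopper-Pearson intervals. Named genes are the 12 highest and 12 lowest by the interval bound nearest 1 (in both libraries for members against Fcer2a-positive cells; with no cell over 25% of the UMIs for the ages), without mitochondrial, ribosomal, hemoglobin, unnamed, pancreatic and gate genes, plus 16 genes always reported. A gene named with its list was picked for its role or after its values were seen.

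Clustering used scanpy 1.11.5 (10000 UMIs per cell, log, 1000 variable genes, 15 components, 15 neighbours, Leiden resolution 0.6). TMM factors came from edgeR 4.0.16. The ratios and thinning were tested on simulated data. Positions are from GENCODE (GRCm38).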

Additional observations from a re-analysis of the deposited data

Results flagged for a closer look

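The heat shock and immediate-early list lay on opposite sides of 1 in the 2 libraries when Fcer2a-negative were set against Fcer2a-positive B cells. It was at 0.967 at 12 weeks (0.94 to 0.99) and at 1.11 at 7 weeks (1.06 to 1.17). The difference between the libraries was not tested, and both ratios are small. Hspa1a was lower in members in both libraries (0.58 and 0.51), while Hsp90aa1 was at 0.99 (0.90 to 1.09) at 12 weeks and at 1.39 (1.16 to 1.66) at 7 weeks.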

How the results depend on the processing

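No paired analysis was possible because each age has 1 library and the labels pair no samples. Counts below are genes higher and lower in members in both libraries (60 and 12 as reported) and genes higher and lower at 12 weeks (681 and 406). Thinning to 2000 UMIs gave 3, 2, 253 and 161, with 57.4% and 58.4% of gated B cells without Fcer2a. Minimums of 10 and of 100 UMIs gave 196, 93, 1696 and 1163 and 12, 5, 127 and 71, and 2-fold 19, 0, 286 and 137. Cells with 4000 or more UMIs gave 27 lower, cells with UMIs of other types left out 11 higher, a mean over cells 24 and 6, and cycling cells left out 34 and 4. TMM and median-of-ratios scaling gave 24 and 23 lower, shifting the 7 week median by -0.16 and -0.18 (log2). Cells under 8000 UMIs (7 and 3) and the cell with most UMIs of each gene left out (10, 19, 1040 and 189) were chosen after seeing the data. Leaving out that cell removes 1 of 33 members at 7 weeks and 1 of 151 at 12 weeks while totals stay, which by construction raises the ratio of 12 over 7 weeks. Of Fcer2a-positive cells it removes 1 of 80 at 7 weeks and 1 of 326 at 12 weeks. By construction this tends to lower the ratio of members over Fcer2a-positive cells.

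A value was counted as turned only where the reported interval excluded 1 and the alternative lay on the other side of 1. This held for 27 of 420 values of lists and for 36 of 867 values of named genes. Crossings of 1 where the reported interval included 1 were not counted. The cause was not tested. Under 8000 UMIs, members over Fcer2a-positive cells gave, at 12 weeks, 0.951 for the marginal zone, 0.737 for the germinal centre, 0.905 for the plasma cell and 1.02 for the heat shock list, Jchain 0.831, Slpi 0.555, Xbp1 0.936, Mzb1 0.917, Sec11c 0.884, Ms4a1 1.04 and Mki67 0.793. At 7 weeks they gave 0.911 for the marginal zone and 0.942 for the plasma cell list, Slpi 0.991, Hsp90b1 0.903, H13 0.513, Mzb1 0.782, Lgals1 0.913, Edem2 0.551, Sec11c 0.913 and Pdia6 0.906. For 12 over 7 weeks they gave 1.25 for the marginal zone, 1.08 for the plasma cell and 0.592 for the cell cycle list. With cells holding UMIs of other types left out, the values at 12 weeks were 0.967 for the plasma cell, 0.993 for the MHC class I and 1.01 for the heat shock list, Xbp1 0.934, Mzb1 0.95, Sec11c 0.973 and Mki67 0.686. At 7 weeks they were Hsp90b1 0.874, H13 0.543, Mzb1 0.934, Edem2 0.302, Sec11c 0.978 and Pdia6 0.923. For 12 over 7 weeks they were 1.06 for the marginal zone, 1.05 for the plasma cell and 0.762 for the cell cycle list.

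Without the cell with most UMIs of each gene, members over Fcer2a-positive cells were at 0.999 for MHC class I at 12 weeks, and at 7 weeks at 0.964 for the marginal zone list, Hsp90b1 0.851, H13 0.586, Edem2 0.332, Sec11c 0.923 and Pdia6 0.861. For 12 over 7 weeks the marginal zone list was at 1.46, the plasma cell list at 2.44, Xbp1 at 1.29 and Jchain at 7.29. After thinning, the heat shock list was at 1.04, Cd79b at 1.0 and Mki67 at 0.864 at 12 weeks, Edem2 at 0 at 7 weeks, and the cell cycle list at 0.827 for 12 over 7 weeks. Without cycling cells the cell cycle list was at 0.898 at 12 weeks and 0.892 for 12 over 7 weeks, and Mki67 at 0. By a mean over cells the cell cycle list was at 0.969 for 12 over 7 weeks and the heat shock list at 1.0 at 12 weeks. The heat shock list at 7 weeks was at 0.996 with TMM and 0.983 with median-of-ratios scaling. At this depth a count of 0 in 33 members allows, by the exact interval, a share of up to 10.6% of cells with a UMI.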

Other observations

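Vpreb3, a chaperone-like protein of B cell receptor assembly, was the gene of the transitional and precursor list with the plainest opposite values. It was at 275 CPM in Fcer2a-negative and 191 CPM in Fcer2a-positive cells at 12 weeks (1.44, 1.21 to 1.7), and at 128 and 237 CPM at 7 weeks (0.54, 0.33 to 0.84). It was chosen after its values were seen. The precursor genes Rag1, Rag2, Dntt and Igll1 were at 0 UMIs in all 4 gates. Cd24a, a surface glycoprotein that falls as B cells mature, had ratios of 1.36 (1.21 to 1.52) and 1.12 (0.86 to 1.46).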
